A study of Arabidopsis thaliana with 8 samples.

Results

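The genes described here are the 33 members of the Arabidopsis XTH family, which encode xyloglucan endotransglucosylase/hydrolases, and 8 genes that build or trim xyloglucan: XXT1, XXT2, XXT5, CSLC4, MUR3, FUT1, XLT2 and XYL1. They were taken by locus identifier as the family and its pathway, and all 41 were found among the 33602 genes of the deposited table. RNA of whole seedlings, 7 days old and held in 24 h light, was sequenced in 4 genotypes of the Columbia accession with 2 libraries each. The double mutant cob-6sfr6-3 carried a mutant allele of COB and a mutant allele of MED16, the sfr6-3 line carried the MED16 allele alone, the cob-6 line carried the COB allele alone, and Col-0 was the wild type (WT). The COB protein sits at the outer face of the plasma membrane and is required for cellulose microfibrils to be laid down in order. MED16 is part of the tail of Mediator, the complex that links transcription factors to RNA polymerase. The labels name MED16 as a suppressor of COBRA, so the comparison of the double mutant with cob-6 asks what the MED16 allele changes when COB is impaired. The nature of each allele, the number of plants in a library and any agent applied are not given in the labels. Nothing in them tells whether the 2 replicates of a genotype came from separate cultures, so p-values below measure only the spread between these libraries, which may be technical.

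Xyloglucan is the main hemicellulose of the primary wall in Arabidopsis and coats and tethers cellulose microfibrils. Its glucan backbone is made in the Golgi by CSLC enzymes, XXT enzymes add xylose, MUR3 and XLT2 add galactose and FUT1 adds fucose. Once the polymer reaches the wall, XTH enzymes cut a xyloglucan chain and join the cut end to another chain or to water, and enzymes such as the alpha-xylosidase XYL1 trim its side chains. XTH genes are sorted by sequence into groups I and II, whose members studied so far mostly join chains, and group III, split into IIIA, with members that hydrolyse xyloglucan, and IIIB.

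The libraries held 24011199 to 37744914 gene reads, except WT replicate 1, which held 324504432. In reads unique to a gene, WT replicate 1 was below the sum of the other 7 libraries in 0 of 25179 genes and exactly equal to it in 1178. For some members, comparisons with WT are therefore also given without WT replicate 1 or after those reads were taken off, where stated. All other comparisons with WT, with their shares and medians, use WT replicate 1 as deposited. With 0 genes below the sum of the other 7, that library cannot be taken as independent of them. How it came to hold so many reads was not tested. Comparisons that use it as deposited, with their p-values, cannot be taken to rest on independent WT replicates. COB stood at 66.9 to 82.5 CPM (reads scaled to the library total) in the 4 libraries with the cob-6 allele, against 143 to 239 CPM in the other 4. MED16 stood at 7.48 to 10.8 CPM in the 4 libraries with the sfr6-3 allele, against 24.3 to 39.1 CPM in the other 4. Of the 10 markers each of green tissue, root and root hair, all were read in at least 1 library. In bulk seedlings, fewer cells of a type and less RNA per cell cannot be told apart.

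The 250 bases before the gene start are shown for 4 genes on which the results turn: XTH15 and XTH22, the members that fell in the double mutant, and XTH13 and XTH14, a pair whose means had the same order of genotypes. They were read from the RefSeq genome of TAIR10.1 by locus tag and are printed 5′ to 3′ on the strand of the gene. XTH15 is at chr4:8138393-8138642 and XTH22 at chr5:23308681-23308930, both on the minus strand. XTH13 is at chr5:23304096-23304345 on the minus strand and XTH14 at chr4:13130041-13130290 on the plus strand. Starts here are those of the RefSeq annotation, which can lie farther out than those of the deposited table. There XTH15 ends at 8138281 and XTH22 at 23308282, so their windows do not adjoin the deposited genes, and the bases between were not searched. Capitals in XTH22 mark TATAAA, whose letters lie 69 to 74 bases before the RefSeq start. Capitals in XTH13 and XTH14 mark the longest segment shared by that pair.
XTH15: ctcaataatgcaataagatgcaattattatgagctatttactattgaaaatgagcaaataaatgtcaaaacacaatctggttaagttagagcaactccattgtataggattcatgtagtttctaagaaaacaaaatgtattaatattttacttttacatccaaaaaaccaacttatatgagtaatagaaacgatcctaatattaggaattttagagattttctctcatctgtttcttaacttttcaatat
XTH22: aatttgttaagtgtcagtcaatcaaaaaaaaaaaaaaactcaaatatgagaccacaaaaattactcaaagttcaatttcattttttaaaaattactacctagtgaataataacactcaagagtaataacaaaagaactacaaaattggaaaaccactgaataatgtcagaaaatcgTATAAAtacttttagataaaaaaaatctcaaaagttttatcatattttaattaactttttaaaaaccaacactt
XTH13: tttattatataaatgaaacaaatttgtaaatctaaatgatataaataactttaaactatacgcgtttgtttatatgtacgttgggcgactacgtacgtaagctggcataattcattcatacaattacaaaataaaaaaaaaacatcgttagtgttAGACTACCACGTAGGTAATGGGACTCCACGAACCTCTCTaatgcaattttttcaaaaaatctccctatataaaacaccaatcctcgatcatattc
XTH14: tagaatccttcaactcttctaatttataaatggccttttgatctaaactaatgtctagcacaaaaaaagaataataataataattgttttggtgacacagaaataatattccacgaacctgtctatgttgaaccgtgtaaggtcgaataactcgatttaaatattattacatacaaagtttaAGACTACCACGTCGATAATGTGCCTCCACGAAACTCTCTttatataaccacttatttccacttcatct

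The shared segment spanned 39 bases, of which 34 were identical, and lay 57 to 95 bases before the start of XTH13 and 30 to 68 bases before that of XTH14. It was looked for after the sequences had been seen. All pairs of XTH12, XTH13, XTH14 and XTH26, which had the same order of genotype means, were compared, and this pair had the longest segment. In the other pairs the segment spanned 8 bases (XTH12 and XTH26) to 22 bases (XTH12 and XTH14). A link of the segment with the order of means was not tested. Exact runs of letters were then taken from the XTH13 and XTH14 segment, so their matches in these 2 windows were fixed by that choice. AGACTACCACGT occurred in 2 of 27443 promoter windows of the same length, searched on both strands, only those it was taken from. The letters CTCCACGAA occurred in 21 windows, 0.0765% of all, with XTH13 and XTH14 among them. TATAAA was in the windows of 23 of the 41 members (56.1%), against 47.3% of all windows, and it was not in that of XTH15. CCGAC, the core bound by the cold-response CBF factors, was in 4 members' windows (9.76%) and in 12% of all windows. These were XTH20, XXT1, XXT5 and MUR3. The G-box CACGTG was in 1 member's window, that of MUR3 (2.44%), and in 6.49% of all. A match describes letters only, and no match says only that the letters are not in this window.

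Of the 41 members, 37 had enough reads to be tested: 8 of 11 in group I, 15 of 15 in group II, 2 of 2 in group IIIA, 4 of 5 in group IIIB, and all 8 synthesis and trimming genes. XTH1 and XTH3 had no read in any library, and XTH2 had 1 read in sfr6-3 replicate 2 and 2 reads in WT replicate 1. XTH29 had 6 and 27 reads in cob-6sfr6-3, 0 in each library of sfr6-3 and cob-6, and 34 and 1 in WT. The 34 reads of WT replicate 1 equal the sum of the reads in the other 7 libraries. No tested member shared many reads with a copy: the lowest share of reads unique to the gene was 97.3%, in XTH18.

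The family was dominated by a few genes. On the scale of RPKM, which divides reads by exon length and allows levels of different genes to be compared, XTH4 had the highest mean over the 8 libraries at 282 RPKM, followed by XTH24 at 200 and XYL1 at 173. XTH7 followed at 96.0, XTH27 at 69.7 and XTH9 at 62.3. XTH4, XTH24 and XTH7 together made up 50.8% to 57.4% of the summed XTH level in every library. That sum was 845 and 895 RPKM in cob-6sfr6-3, 1147 and 855 in sfr6-3, 1236 and 1063 in cob-6, and 1030 and 1395 in WT. The double mutant libraries were both below both cob-6 and both WT libraries, and 1 sfr6-3 library was as low.

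**Figure D1:**
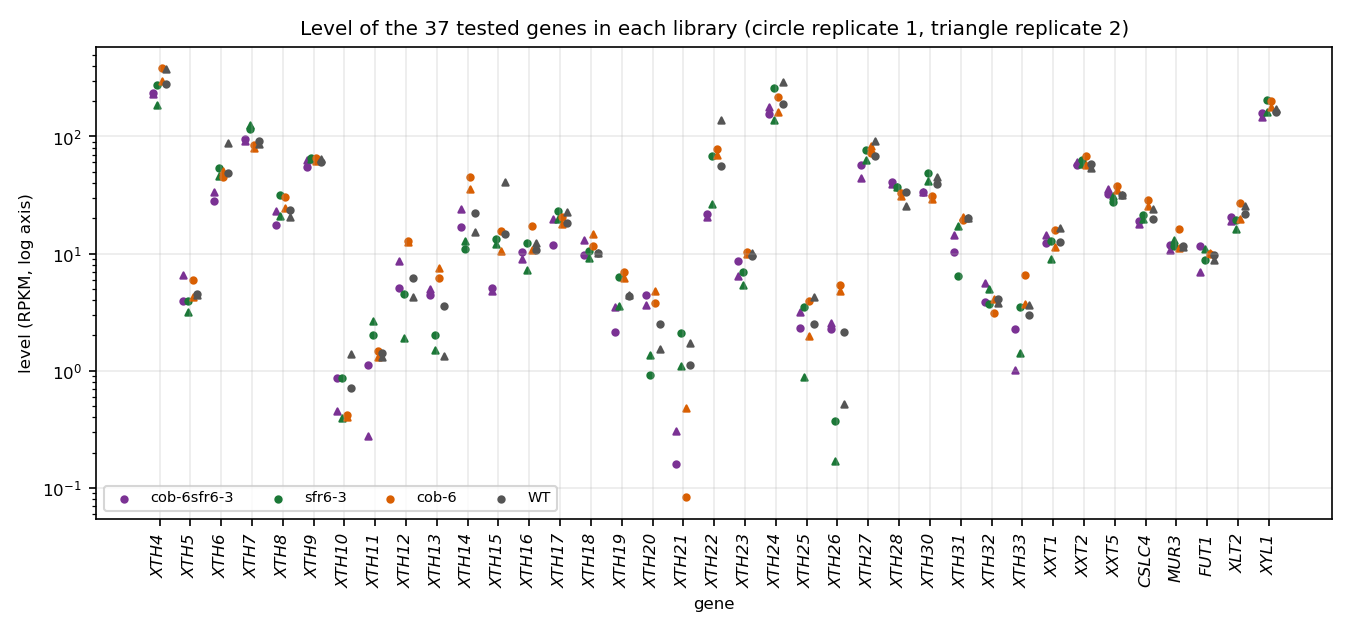
Level of the 37 tested genes in each library (RPKM, log axis), with colours for genotypes, circles for replicate 1 and triangles for replicate 2. XTH4, XTH24 and XYL1 lie near the top in all libraries, XTH10 and XTH21 near the bottom, and XTH15, XTH22 and XTH26 spread widely between genotypes.

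Of the 6 most abundant members, edgeR called none in any contrast, and DESeq2 called XTH27 in the double mutant against WT. XTH4 (AT2G06850), also known as EXGT-A1, stood at 292 and 289 CPM in cob-6sfr6-3, 320 and 225 in sfr6-3, 451 and 359 in cob-6, and 341 and 492 in WT. The log2 fold change was -0.52 ± 0.21 (SE, edgeR, adjusted p = 0.285) in the double mutant against WT and -0.48 ± 0.21 (adjusted p = 0.274) against cob-6. Double mutant libraries were below cob-6 and WT libraries, without overlap. The sfr6-3 libraries were also below WT without overlap, at -0.61 ± 0.21 (edgeR, adjusted p = 0.635). Between the double mutant and sfr6-3 the libraries overlapped, at 0.09 ± 0.21, so lower XTH4 was not particular to the double mutant.
XTH24, also known as MERI5, stood at 193 and 221 CPM in cob-6sfr6-3, 298 and 167 in sfr6-3, 258 and 195 in cob-6, and 231 and 380 in WT. In the double mutant against WT its log2 fold change was -0.56 ± 0.28 (edgeR, adjusted p = 0.379). The sfr6-3 and cob-6 libraries overlapped those of the double mutant.
XTH7 stood at 111 and 105 CPM in cob-6sfr6-3, 125 and 141 in sfr6-3, 93.1 and 88.7 in cob-6, and 105 and 105 in WT. Its log2 fold change in sfr6-3 against WT was 0.35 ± 0.13 (edgeR, adjusted p = 0.781). The order of genotypes in XTH7 was unlike that of XTH4, with sfr6-3 highest and cob-6 lowest.
XTH9 stood at 61.5 and 71.0 CPM in cob-6sfr6-3, 68.9 and 71.0 in sfr6-3, 70.0 and 66.7 in cob-6, and 66.6 and 75.0 in WT, and its groups overlapped throughout. In the 5 comparisons of genotypes its log2 fold change lay between -0.09 and -0.02, with SE 0.14 in each.

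**Figure D2:**
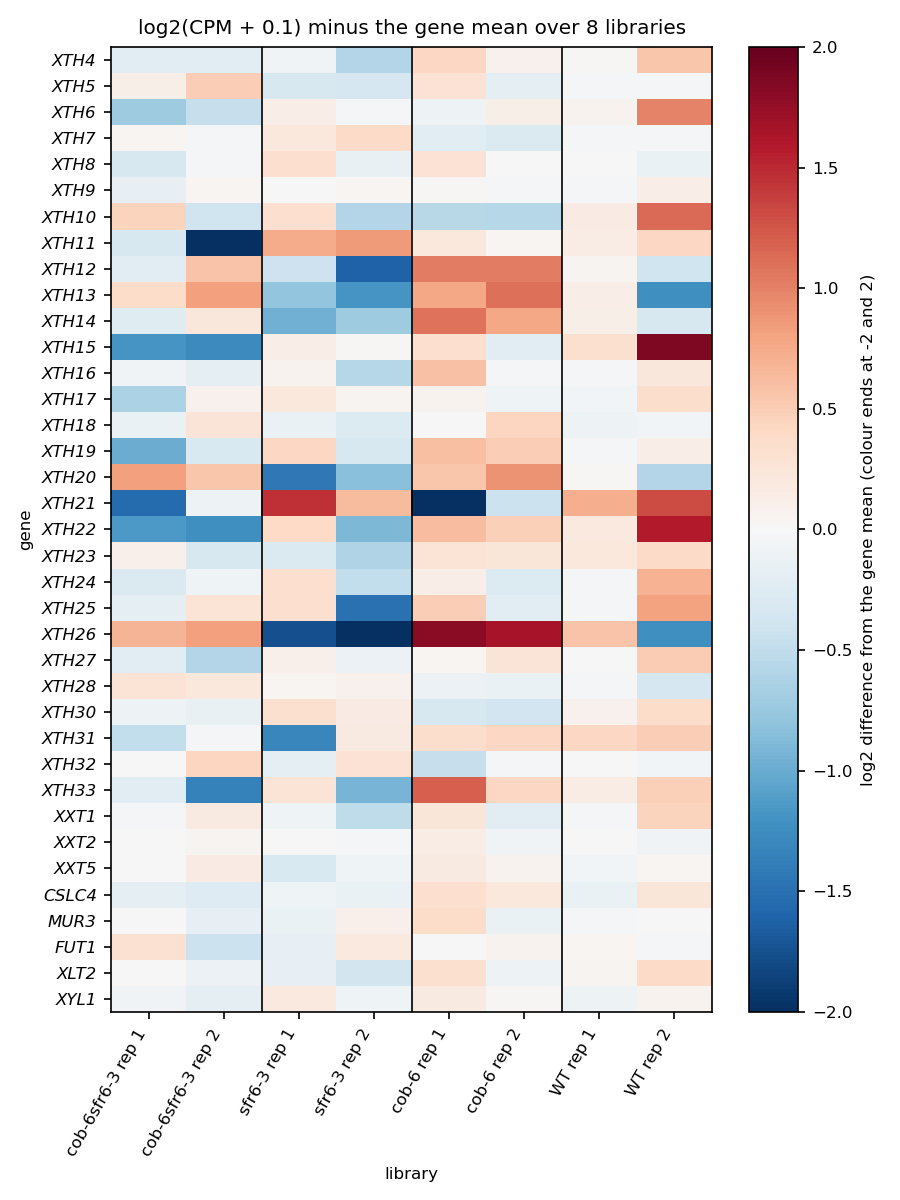
Each row is a tested gene and each column a library, coloured by log2(CPM + 0.1) minus the gene's mean over 8 libraries, with red for higher and blue for lower and colour ending at -2 and 2. XTH15 and XTH22 are lowest in the cob-6sfr6-3 libraries, XTH12, XTH13, XTH14 and XTH26 have their highest mean in cob-6, and the rows from XXT1 to XYL1 stay pale.

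In the double mutant against WT, 2 of the 37 tested members were called at an adjusted p below 0.05, both lower, XTH15 and XTH22. Over all 21384 genes tested, 0.846% were called, and 0.8% were called lower. XTH15 (AT4G14130), also known as XTR7 and known as a gene induced by shade, is on chromosome 4 from 8137051 to 8138281 in the deposited table. It stood at 5.56 and 5.22 CPM in cob-6sfr6-3, 14.0 and 13 in sfr6-3, 16.2 and 11 in cob-6, and 15.9 and 46.7 in WT. The double mutant libraries were lowest and did not overlap any other genotype, and WT replicate 2 was far above WT replicate 1. The log2 fold change was -2.52 ± 0.40 (SE, edgeR, adjusted p = 0.0138).
XTH22 (AT5G57560), also known as TCH4 and known as a gene induced by touch, is on chromosome 5 from 23307130 to 23308282. It stood at 23.7 and 22.4 CPM in cob-6sfr6-3, 69.6 and 28.3 in sfr6-3, 80.7 and 73.5 in cob-6, and 60.4 and 158 in WT. The double mutant libraries were again lowest, and sfr6-3 replicate 2 was closest to them. The log2 fold change was -2.24 ± 0.43 (edgeR, adjusted p = 0.0337).

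Both values depended on WT. Without WT replicate 1 the log2 fold change was -3.12 for XTH15 and -2.77 for XTH22, and without WT replicate 2 it was -1.56 (edgeR, adjusted p = 0.0279) and -1.39 (adjusted p = 0.132), which ends the call of XTH22. Leaving out either double mutant library ended both calls, with adjusted p of 0.056 and 0.106 for XTH15 and of 0.0739 and 0.164 for XTH22, and with only the 2 genotypes in the fit the values were 0.0743 and 0.0629. With the reads of the other 7 libraries taken off WT replicate 1, XTH15 held 17.7 CPM there and 46.7 CPM in WT replicate 2, and XTH22 held 61.2 and 157 CPM, in reads unique to the gene. Summed green tissue markers were 41515 and 43789 CPM in cob-6sfr6-3, 31832 and 42100 in sfr6-3, 29574 and 35819 in cob-6, and 40419 and 42186 in WT. In the double mutant against WT, 7 of the 10 green markers had a negative log2 fold change and 3 a positive one. The lowest was that of PSAF, at -0.99 (edgeR, adjusted p = 0.0532). Summed root markers were 235 and 284 CPM in cob-6sfr6-3 and 224 and 244 CPM in WT. Of these 10 markers, 7 had a positive log2 fold change and 3 a negative one, and 1 was called, TIP2;3 at -4.72 (edgeR, adjusted p = 0.00527). Their part in the XTH values was not tested.

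Next in order of p were XTH6, in group I, and XTH27, also known as EXGT-A3 and known from leaf veins. XTH6 stood at 32.3 and 38.4 CPM in cob-6sfr6-3, 57.9 and 51.2 in sfr6-3, 49.3 and 57.0 in cob-6, and 55.4 and 105 in WT. Against WT it had a log2 fold change of -1.18 ± 0.25 (edgeR, adjusted p = 0.0506), and the double mutant libraries were below all others. Without WT replicate 1 it was -1.58 (adjusted p = 0.000439), and without WT replicate 2 it was -0.65 (adjusted p = 0.399).
XTH27 stood at 82.2 and 64.2 CPM in cob-6sfr6-3, 104 and 88.6 in sfr6-3, 99.7 and 116 in cob-6, and 97.3 and 138 in WT. Against WT it had a log2 fold change of -0.68 ± 0.19 (edgeR, adjusted p = 0.138), and the double mutant libraries did not overlap those of any other genotype. At an unadjusted p below 0.05, 3 members were higher (8.11%, against 6.02% of all genes) and 7 lower (18.9%, against 8.44%). The median log2 fold change was -0.22 over the tested members and 0.02 over all genes. DESeq2 called 4 members in this contrast, XTH6, XTH15, XTH22 and XTH27, and 3.44% of all genes.

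**Figure D3:**
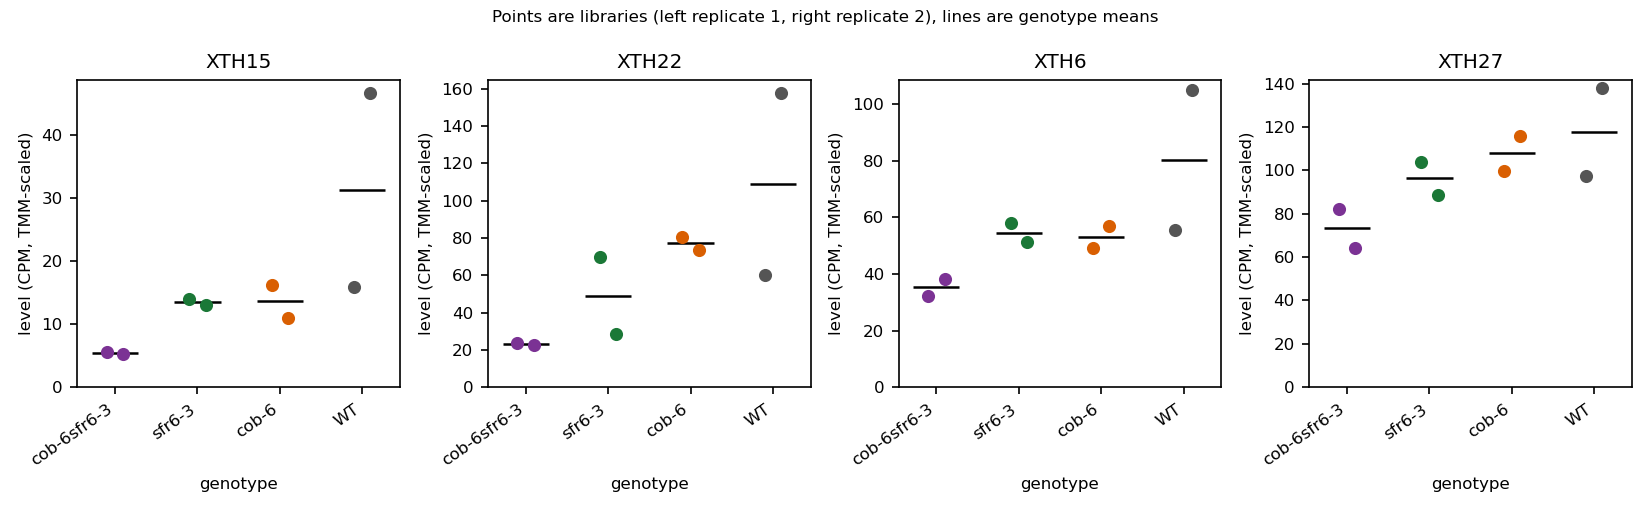
Levels of XTH15, XTH22, XTH6 and XTH27 (CPM) by genotype, with 1 point per library and a line at the mean of the 2. The cob-6sfr6-3 points are the lowest in each panel, and the WT points lie far apart, with replicate 2 above replicate 1.

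In the double mutant against cob-6, where WT takes no part in the difference, 0 of the 37 members were called by edgeR, against 1.36% of all genes. DESeq2 called 3 members, XTH14, XTH15 and XTH19, and 4.72% of all genes. At an unadjusted p below 0.05, 9 members were lower (24.3%, against 8.71% of all genes) and 1 was higher (2.7%, against 7.95%). The median log2 fold change was -0.22 over members and 0.01 over all genes. Values were negative in 29 of the 37 members, 14 of them among the 15 group II genes, and in 10476 of the 21384 genes tested. The 3 smallest p-values belonged to XTH14 (log2 fold change -0.92 ± 0.21, adjusted p = 0.0608), XTH22 (-1.74 ± 0.42, adjusted p = 0.0688) and XTH15 (-1.34 ± 0.40, adjusted p = 0.128). Levels of XTH15 and XTH22 in both double mutant libraries were below those in both cob-6 libraries. Summed green tissue markers, given above, were higher in both double mutant libraries than in both cob-6 libraries, 8 of the 10 had a positive log2 fold change, and 2 had an unadjusted p below 0.05. Summed root markers were also higher, at 235 and 284 CPM in cob-6sfr6-3 and 168 and 181 CPM in cob-6. Of the 10 root markers, 7 had a positive log2 fold change and 3 a negative one. At an unadjusted p below 0.05, 4 were higher (40%, against 7.95% of all genes). On the same rule 1 was lower (10%, against 8.71%), TIP2;3 at -1.59. In edgeR 1 root marker was called, PHT1;1 at 0.88 (edgeR, adjusted p = 0.0392). What these markers contribute to the XTH values was not tested.
XTH19, a root gene, had the same adjusted p as XTH15 to the digits given. It stood at 2.49 and 4.04 CPM in cob-6sfr6-3, 6.75 and 4 in sfr6-3, 7.65 and 7.14 in cob-6, and 4.95 and 5.52 in WT, with a log2 fold change of -1.17 ± 0.35 (edgeR, adjusted p = 0.128) against cob-6. The double mutant libraries were below both cob-6 libraries and overlapped those of sfr6-3.
WT libraries are not in this difference, but they share in the estimate of spread, the scaling and the filter. Leaving out both, a choice made after the data had been seen, left the log2 fold changes of XTH14, XTH15 and XTH22 at -0.92, -1.34 and -1.74 and gave adjusted p of 0.0377, 0.0193 and 0.0108 in edgeR. Those 3 were then the members called, against 1.82% of all genes. The authors' deposited table of this comparison, a signed fold with its p-value, gave 6 of the 41 members a p-value below 0.05, all negative. Of its 33602 genes, 3.18% had such a p-value. That share covers both directions, and only 25179 of those genes had a unique read, so it is not a like share for the members. The sign of the authors' fold was that of cob-6sfr6-3 over cob-6 in 289 of the 291 genes called in this contrast. In the authors' deposited table the folds were -3.33 for XTH22, -2.48 for XTH15, -1.9 for XTH14, -1.49 for XTH6, -1.48 for XTH27 and -1.4 for XTH4.

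**Figure D4:**
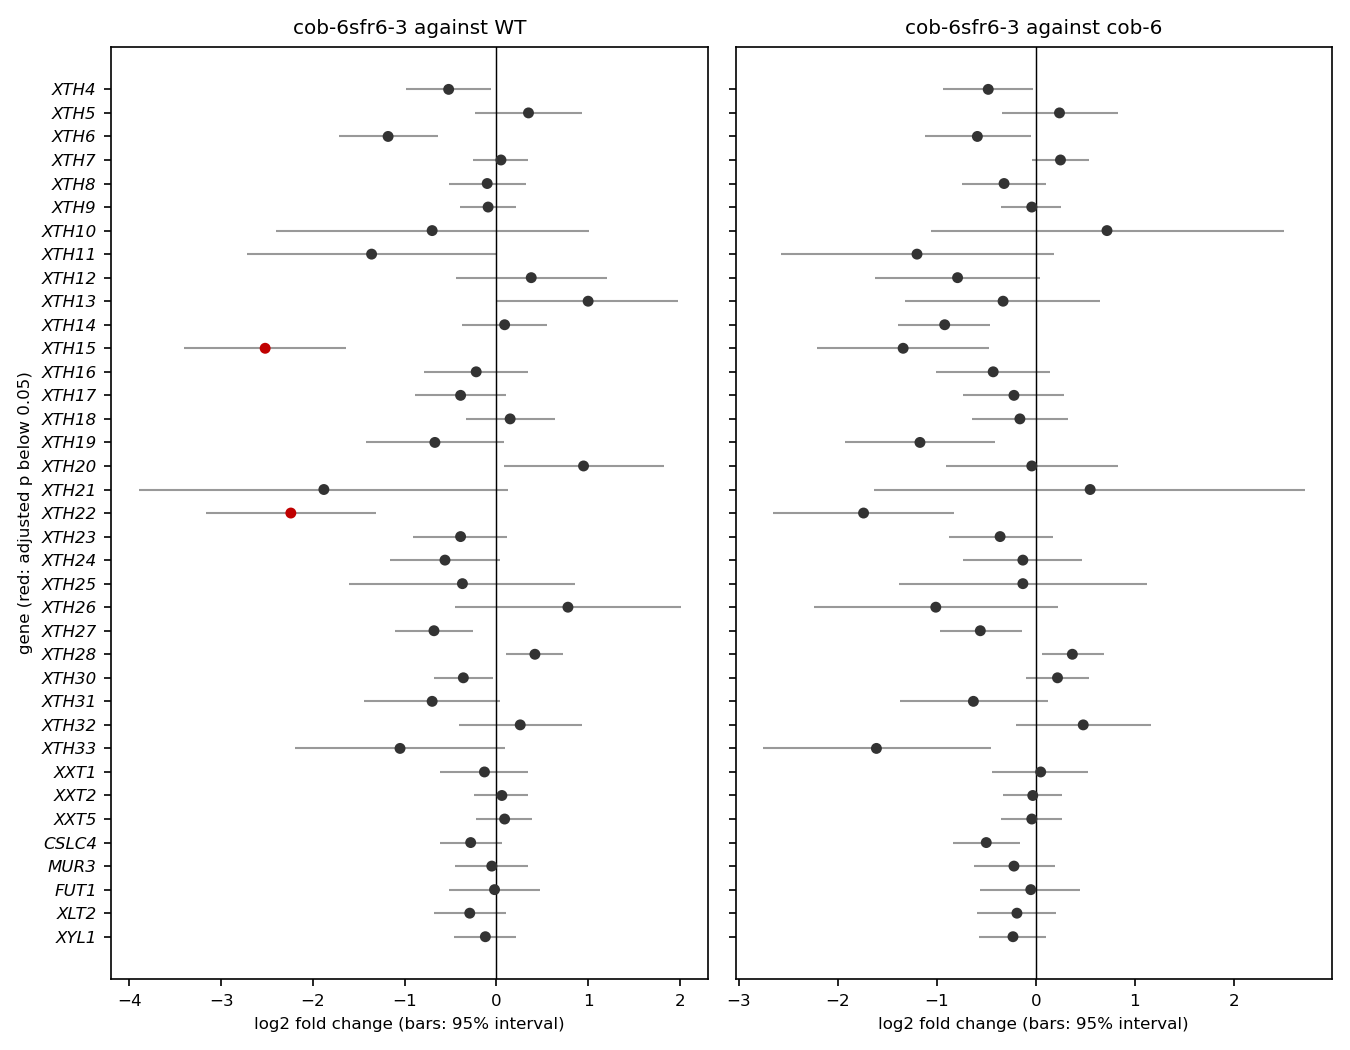
Log2 fold change of the 37 tested genes in cob-6sfr6-3 against WT (left) and against cob-6 (right), with bars for the 95% interval and red for an adjusted p below 0.05. XTH15 and XTH22 are red on the left, at -2.52 and -2.24, and on the right no gene is red.

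XTH14 and XTH26, known to act at root hair initiation, and XTH12 and XTH13, known from roots, had the same order of genotype means: cob-6 highest, then the double mutant, WT and sfr6-3. This order was not particular to them: the mean CPM of XTH18, XTH20 and XXT5 had it too. Its share over all genes was not counted. XTH14 and XTH26 fall under the rule for named genes, and XTH12 and XTH13 were added after their values had been seen. XTH14 (AT4G25820), on chromosome 4 from 13130297 to 13131788, stood at 19.0 and 26.3 CPM in cob-6sfr6-3, 11.4 and 13.7 in sfr6-3, 47.6 and 38.5 in cob-6, and 24.4 and 17.9 in WT. The cob-6 libraries were highest, the sfr6-3 libraries lowest, and those of the double mutant overlapped WT. The log2 fold change was 1.02 ± 0.21 in cob-6 against WT (edgeR, adjusted p = 0.214), -0.76 ± 0.22 in sfr6-3 against WT (adjusted p = 0.416) and 0.86 ± 0.22 in the double mutant against sfr6-3 (adjusted p = 0.154).
XTH26 stood at 2.57 and 2.83 CPM in cob-6sfr6-3, 0.39 and 0.187 in sfr6-3, 5.72 and 5.13 in cob-6, and 2.37 and 0.608 in WT. The sfr6-3 values rest on 10 and 5 reads. Its log2 fold change was 3.22 ± 0.68 in the double mutant against sfr6-3 (edgeR, adjusted p = 0.102), 1.79 ± 0.57 in cob-6 against WT (adjusted p = 0.616) and -2.44 ± 0.67 in sfr6-3 against WT (adjusted p = 0.392). For cob-6 against WT it was 3.15 without WT replicate 1 and 1.19 without WT replicate 2. For sfr6-3 against WT it was -1.07 without WT replicate 1 and -3.04 without WT replicate 2.
XTH12 stood at 5.52 and 9.58 CPM in cob-6sfr6-3, 4.80 and 2.02 in sfr6-3, 13.1 and 13.1 in cob-6, and 6.69 and 4.83 in WT. XTH13 (AT5G57540), on chromosome 5 from 23302996 to 23304049, stood at 3.89 and 5.38 CPM in cob-6sfr6-3, 1.68 and 1.27 in sfr6-3, 5.19 and 6.52 in cob-6, and 3.27 and 1.22 in WT. XTH13 overlapped between cob-6 and the double mutant, and between sfr6-3 and WT. In XTH12, cob-6 lay above all other libraries.
The summed level of 10 root hair markers had the same order of means. It was 116 and 155 CPM in cob-6sfr6-3, 79.6 and 70.0 in sfr6-3, 232 and 202 in cob-6, and 134 and 88.2 in WT. Single markers did not all follow this order: RHD6 and RSL2 were lower in cob-6 than in WT, and RSL2, RSL4 and COBL9 lower in the double mutant than in WT. RHD6, RSL4 and RHD2 were higher in sfr6-3 than in WT, at 0.32, 0.31 and 0.06 in log2 fold change. RHD6 was also higher in the double mutant than in cob-6, at 0.93. In edgeR 0 of the 10 were called in any contrast, against 0.0514% to 1.36% of all genes. At an unadjusted p below 0.05, 5 were higher in cob-6 against WT (50%, against 1.91% of all genes). In the double mutant, 3 were lower against cob-6 (30%, against 8.71%) and 3 higher against sfr6-3 (30%, against 7.6%). DESeq2 called RHS13 and PRP3 in cob-6 against WT, against 0.603% of all genes. It called both again when the double mutant was set against sfr6-3 (2.33% of all genes), and RHS13 when the double mutant was set against cob-6 (4.72%). All 10 root hair markers had reads in every library. Their part in the XTH values was not tested. The 10 general root markers did not follow this order, at 235 and 284 CPM in cob-6sfr6-3, 269 and 274 in sfr6-3, 168 and 181 in cob-6, and 224 and 244 in WT.

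**Figure D5:**
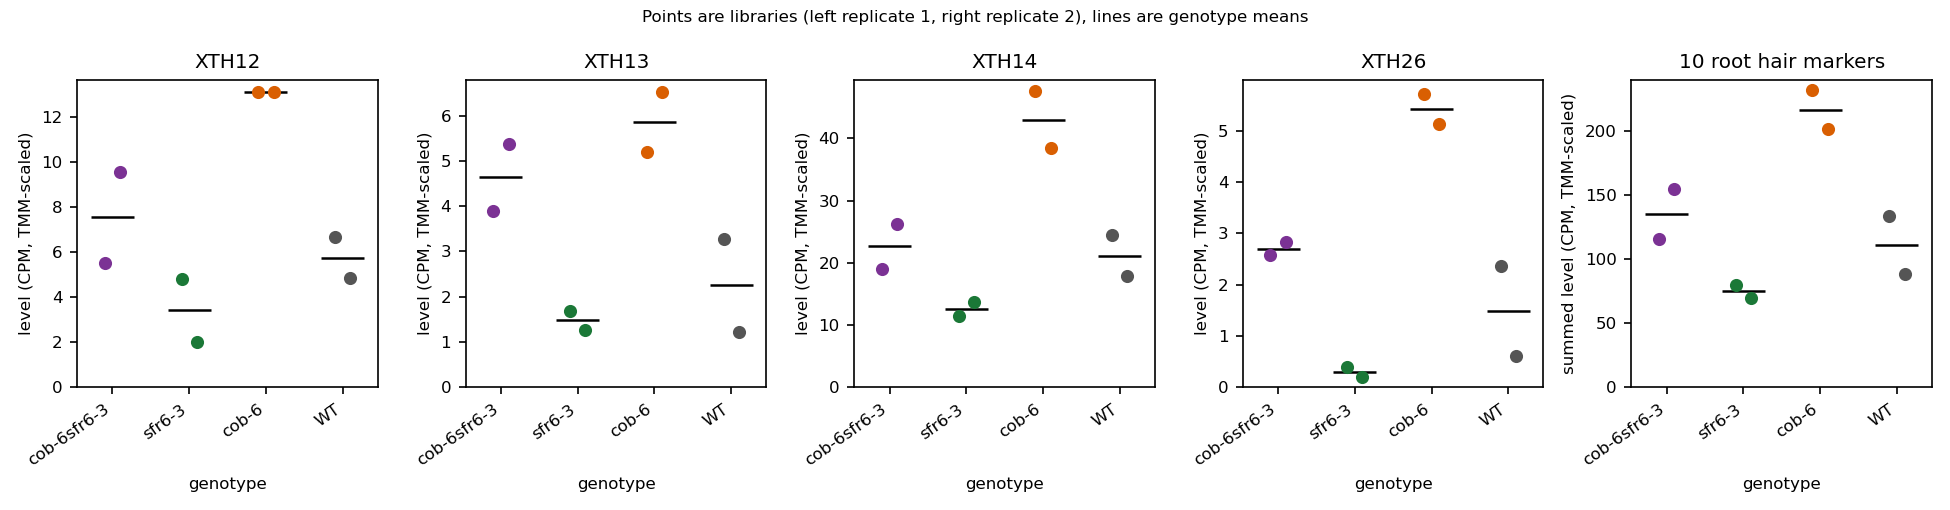
Levels of XTH12, XTH13, XTH14 and XTH26 and the summed level of 10 root hair markers (CPM) by genotype, with 1 point per library and a line at the mean of the 2. In every panel cob-6 has the highest mean and sfr6-3 the lowest.

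In the double mutant against sfr6-3, 0 members were called by edgeR, against 0.0748% of all genes, and DESeq2 called 5, XTH13, XTH14, XTH15, XTH20 and XTH26, against 2.33% of all genes. At an unadjusted p below 0.05, 6 members were higher (16.2%, against 7.6% of all genes) and 6 lower (16.2%, against 6.78%). The median log2 fold change was 0.03 over members and 0.01 over all genes. XTH20, a root gene, had the second smallest p after XTH26. It stood at 5.05 and 4.17 CPM in cob-6sfr6-3, 0.976 and 1.53 in sfr6-3, 4.15 and 5.33 in cob-6, and 2.85 and 1.83 in WT. Libraries with the cob-6 allele were above those without it, and the log2 fold change was 1.87 ± 0.43 (edgeR, adjusted p = 0.118). XTH15 had -1.32 in this contrast (edgeR, adjusted p = 0.189). Without both WT libraries, again a choice made after the data had been seen, XTH15 (-1.33, edgeR, adjusted p = 0.0493) and XTH26 (3.21, adjusted p = 0.0296) were called, against 0.363% of all genes.

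In sfr6-3 against WT, 0 members were called by edgeR, against 0.131% of all genes, and DESeq2 called 1, XTH26, against 0.814%. There were 11 members lower at an unadjusted p below 0.05 (29.7%, against 4.41% of all genes) and 1 was higher (2.7%, against 1.18%). The median log2 fold change was -0.30 over members and 0.00 over all genes. The smallest p-values were those of XTH26 and XTH14, given above, and XTH15, at -1.20 ± 0.38 (edgeR, adjusted p = 0.537). Without WT replicate 1, XTH15 had -1.79 (edgeR, adjusted p = 0.00553) and XTH22 -1.69 (adjusted p = 0.0312), and without WT replicate 2 they had -0.24 and -0.30. Both values thus depended on which WT library was used.

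In cob-6 against WT, 0 members were called by edgeR, against 0.0889% of all genes, and DESeq2 called 1, XTH14, against 0.603%. At an unadjusted p below 0.05, 5 members were higher (13.5%, against 1.91% of all genes), all 5 in group II, and 4 were lower (10.8%, against 3.35%). The median log2 fold change was -0.04 over members and 0.01 over all genes. XTH14 and XTH26, above, had 2 of the 3 smallest p-values, and the other was XTH30. XTH30, in group IIIB, stood at 46.1 and 44.2 CPM in cob-6sfr6-3, 61.5 and 55.1 in sfr6-3, 39.6 and 37.9 in cob-6, and 52.3 and 63.5 in WT. Its log2 fold change was -0.58 ± 0.15 (edgeR, adjusted p = 0.377), and libraries with the cob-6 allele were below those without it. All 10 green tissue markers had a negative log2 fold change in cob-6 against WT, as did 10468 of the 21384 genes tested. Of the 10 markers, 4 had an unadjusted p below 0.05, and a part of theirs in the XTH values was not tested. Without WT replicate 1, XTH14 was called at 1.27 (edgeR, adjusted p = 0.0459) and XTH15 at -1.78 (adjusted p = 0.00498). Without WT replicate 2 XTH15 had -0.22. XTH22 had -0.49 with all libraries (edgeR, adjusted p = 0.999) and 0.35 without WT replicate 2.

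The interaction compares the effect of cob-6 in the sfr6-3 background with its effect in WT, as a difference of log2 fold changes. No member was called by edgeR, against 0.0514% of all genes, and 0 were called by DESeq2, against 0.412%. At an unadjusted p below 0.05, 1 member had a negative interaction, XTH19, and 0 a positive one, against 3.99% and 5.09% of all genes. XTH19 had -1.21 ± 0.49 (edgeR, adjusted p = 0.514). XTH11, in group I, had -1.73 ± 0.86 (adjusted p = 0.577), and stood at 1.32 and 0.323 CPM in cob-6sfr6-3, 2.89 and 3.10 in sfr6-3, 1.96 and 1.72 in cob-6, and 1.88 and 2.27 in WT. Its double mutant libraries were lowest. XTH8 had -0.51 ± 0.27 (edgeR, adjusted p = 0.606), and stood at 22.2 and 27.2 CPM in cob-6sfr6-3, 35.2 and 25 in sfr6-3, 33.9 and 28 in cob-6, and 27.6 and 25.4 in WT. Both cob-6 libraries were above those of WT and of the double mutant, and the other pairs of genotypes overlapped.

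Group III held members with other patterns, of which XTH28, XTH31 and XTH33 are given, with XTH21 of group II, as genes chosen after their values had been seen. XTH28, in group IIIB and known from stamen filaments, stood at 58.1 and 55.7 CPM in cob-6sfr6-3, 49.4 and 51.0 in sfr6-3, 44.1 and 43.7 in cob-6, and 46.8 and 38.1 in WT. The double mutant libraries were above all others, with a log2 fold change of 0.42 ± 0.14 against WT (edgeR, adjusted p = 0.223) and 0.37 ± 0.14 against cob-6 (adjusted p = 0.226). XTH33, in group IIIB and known for a protein bound to the plasma membrane, stood at 2.49 and 1.1 CPM in cob-6sfr6-3, 3.59 and 1.5 in sfr6-3, 6.88 and 3.94 in cob-6, and 3.28 and 4.14 in WT. Against cob-6 its log2 fold change of -1.61 ± 0.53 was not called (edgeR, adjusted p = 0.163), and the double mutant libraries overlapped those of sfr6-3. XTH31, a xyloglucan hydrolase of group IIIA, stood at 14.0 and 19.2 CPM in cob-6sfr6-3, 7.96 and 22.3 in sfr6-3, 25.1 and 26.3 in cob-6, and 26.3 and 27.8 in WT. The 4 libraries with the sfr6-3 allele were below the 4 without it, and the sfr6-3 replicates lay far apart. Its log2 fold change was -0.70 ± 0.34 in the double mutant against WT (edgeR, adjusted p = 0.374) and -0.83 ± 0.34 in sfr6-3 against WT (adjusted p = 0.819).
XTH21, a group II gene known for a role in root growth, had 4 and 22 reads in cob-6sfr6-3, 50 and 28 in sfr6-3, 2 and 11 in cob-6, and 364 and 43 in WT. On the CPM scale this was 0.155 and 0.592 in cob-6sfr6-3, 1.95 and 1.05 in sfr6-3, 0.0768 and 0.451 in cob-6, and 1.13 and 1.74 in WT. Libraries with the cob-6 allele were below those without it, at few reads, and the log2 fold change was -2.43 ± 0.97 in cob-6 against WT (edgeR, adjusted p = 0.837). The other 8 tested XTH genes, XTH5, XTH10, XTH16, XTH17, XTH18, XTH23, XTH25 and XTH32, had mean levels from 0.689 RPKM in XTH10 to 19.2 RPKM in XTH17. Over the 5 comparisons of genotypes their log2 fold changes lay between -1.42 ± 0.81 (cob-6 against WT) and 0.72 ± 0.82 (cob-6sfr6-3 against cob-6), both values being those of XTH10. XTH23 in sfr6-3 against WT (-0.74 ± 0.24) and XTH5 in the double mutant against sfr6-3 (0.66 ± 0.27) had an unadjusted p below 0.05.

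Of the 8 genes that build or trim xyloglucan, 0 were called in any of the 6 contrasts, by edgeR or by DESeq2. Over all genes, 0.0514% to 1.36% were called by edgeR and 0.412% to 4.72% by DESeq2. At such shares, 0 of 8 says little about these genes. Their log2 fold changes and interactions lay between -0.50 and 0.55 with 95% intervals that together spanned -0.99 to 1.23, both limits being those of XXT1. At an unadjusted p below 0.05, XXT1 and XLT2 were lower in sfr6-3 against WT (25%, against 4.41% of all genes). CSLC4 was lower in the double mutant against cob-6 (12.5%, against 8.71%). CSLC4, the glucan synthase of the backbone, stood at 47.8 and 44.9 CPM in cob-6sfr6-3, 50.7 and 49.0 in sfr6-3, 68.4 and 62.7 in cob-6, and 49.0 and 63.5 in WT. Against cob-6 it had a log2 fold change of -0.50 ± 0.15 (edgeR, adjusted p = 0.142), and the double mutant libraries did not overlap those of cob-6.
Among the xylosyltransferases, XXT1 stood at 22.8 and 26.2 CPM in cob-6sfr6-3, 21.9 and 16.2 in sfr6-3, 27.4 and 20.0 in cob-6, and 22.5 and 31.6 in WT. Its log2 fold change in sfr6-3 against WT was -0.50 ± 0.22 (edgeR, adjusted p = 0.879). XXT2 stood at 105 and 110 CPM in cob-6sfr6-3, 107 and 103 in sfr6-3, 118 and 101 in cob-6, and 105 and 101 in WT. In the 5 comparisons of genotypes it had log2 fold changes between -0.03 and 0.09, with 95% intervals that together spanned -0.33 to 0.39. XXT5 stood at 61.4 and 68.4 CPM in cob-6sfr6-3, 49.5 and 57.5 in sfr6-3, 69.2 and 64.6 in cob-6, and 59.3 and 63.2 in WT, with its highest log2 fold change, 0.28 ± 0.14 (edgeR, adjusted p = 0.391), in the double mutant against sfr6-3.
Of the galactosyltransferases, MUR3 stood at 29.3 and 26.2 CPM in cob-6sfr6-3, 26.8 and 31.4 in sfr6-3, 37.8 and 26.6 in cob-6, and 28.4 and 29.1 in WT. XLT2 stood at 32.4 and 29.8 CPM in cob-6sfr6-3, 28.9 and 25.1 in sfr6-3, 40.6 and 30.4 in cob-6, and 33.8 and 42.3 in WT, with a log2 fold change of -0.49 ± 0.18 (edgeR, adjusted p = 0.736) in sfr6-3 against WT. MUR3 overlapped between genotypes, with -0.22 ± 0.18 (edgeR, adjusted p = 0.591) in the double mutant against cob-6. The fucosyltransferase FUT1 stood at 22.3 and 13.3 CPM in cob-6sfr6-3, 16.1 and 20.6 in sfr6-3, 18.1 and 18.9 in cob-6, and 18.4 and 17.5 in WT. It had log2 fold changes between -0.05 and 0.04 in the 5 comparisons of genotypes, with SE 0.23, and its double mutant libraries lay on either side of the rest. XYL1 stood at 508 and 467 CPM in cob-6sfr6-3, 611 and 504 in sfr6-3, 604 and 541 in cob-6, and 501 and 560 in WT, with its largest change, -0.23 ± 0.15 (edgeR, adjusted p = 0.468), in the double mutant against cob-6.

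Another 15 genes of xyloglucan synthesis, side-chain modification and breakdown that are no members were all tested. In any contrast 0 were called by edgeR, against 0.0514% to 1.36% of all genes, and 0 by DESeq2, against 0.412% to 4.72%. At an unadjusted p below 0.05, 1 was lower in sfr6-3 against WT (6.67%, against 4.41% of all genes). In the double mutant, 1 was higher against WT (6.67%, against 6.02%) and 2 were higher against sfr6-3 (13.3%, against 7.6%). The 2 with the smallest p were BGLC3, a beta-glucosidase, and BGAL10, a beta-galactosidase that trims xyloglucan. BGLC3 stood at 22.7 and 24.6 CPM in cob-6sfr6-3, 16.8 and 15.7 in sfr6-3, 20.4 and 17.9 in cob-6, and 17.8 and 14.6 in WT. Its log2 fold change in the double mutant against WT was 0.54 ± 0.17 (edgeR, adjusted p = 0.195), and the double mutant libraries were above all others. BGAL10 stood at 96.8 and 101 CPM in cob-6sfr6-3, 76.3 and 61.1 in sfr6-3, 111 and 80.6 in cob-6, and 84.3 and 107 in WT, with 0.53 ± 0.19 (edgeR, adjusted p = 0.239) in the double mutant against sfr6-3. Over the 15 genes, the median log2 fold change lay between -0.10 and 0.09 in the 5 comparisons of genotypes, against 0.00 to 0.02 over all genes.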

How the data were processed

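RNA of whole seedlings was sequenced in 8 libraries, grouped and numbered by their titles. The authors deposited whole-number counts of gene reads, unique gene reads and exon reads for each library, per the file headers, and RPKM, which equal exon reads over exon length and total gene reads. Exon length (other) is the deposited length in bases. Their signed fold of the double mutant over cob-6 was used as a score, with its p-value, per the file headers of the deposited table. Aligner, counter, use of strand and build: not given in the sources used here. Columns of samples from another series numbered 0.

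Total gene reads were tested with edgeR 4.0.16 (quasi-likelihood, TMM, filterByExpr, R 4.3.3) in 1 fit of all 8 libraries with 1 mean per genotype, 4 residual and 7.91 prior degrees of freedom, over 21384 genes and 6 contrasts. A gene was called at a Benjamini-Hochberg adjusted p below 0.05 over all tested genes of a contrast. Every adjusted p for a gene is from that fit unless named otherwise. DESeq2 1.42.0 and other settings were alternatives. CPM are TMM-scaled, and 3 reads equal 0.00928 CPM in WT replicate 1 and 0.0807 to 0.123 CPM in the others, for counting error only.

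Replicate numbers did not pair the samples: deviations of same-numbered libraries correlated between -0.0743 and 0.0494. Values per library were given for members called in any contrast, the 3 with the smallest p in each, the 8 synthesis and trimming genes, the 6 with the highest mean RPKM, and 2 other xyloglucan genes. XTH12, XTH13, XTH21, XTH28, XTH31 and XTH33 were added outside that rule, after their values had been seen. The members and lists were chosen with earlier results of these data known. Promoter windows came from TAIR10.1. Of 32835 loci matched by name, 32825 overlapped the deposited position and 10599 shared start and end, after 1 was added to deposited starts.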

Additional observations from a re-analysis of the deposited data

How the results depend on the processing

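The number of members called depended on the settings, and so did the share of all genes called, given in brackets. In the double mutant against WT (2 called, 0.846%) it was 4 with DESeq2 (3.44%), 6 with no filter on low counts (4.54%), 4 with the other libraries' reads taken off WT replicate 1 (3.56%), 0 with only the 2 genotypes in the fit (0.28%), and 0 to 4 when 1 library was left out (0.338% to 3.45%). Against cob-6 (0 called, 1.36%) it was 3 with DESeq2 (4.72%), 7 with no filter (5.04%), 2 with unique reads (1.58%), 2 with reads taken off WT replicate 1 (1.99%), 1 with only the 2 genotypes (1.29%), 3 without both WT libraries, a choice made after seeing the data (1.82%), and 0 to 3 when 1 library was left out (0.307% to 4.22%). Against sfr6-3 (0 called, 0.0748%) it was 5 with DESeq2 (2.33%), 8 with no filter (3.19%), 1 with reads taken off WT replicate 1 (0.452%), 2 without both WT libraries (0.363%), and 0 to 3 when 1 library was left out (0.0135% to 2.03%). For cob-6 against WT (0 called, 0.0889%) it was 1 with DESeq2 (0.603%), 5 with no filter (1.36%), and 0 to 3 when 1 library was left out (0% to 0.621%), and for sfr6-3 against WT (0 called, 0.131%) 1 (0.814%), 6 (1.56%), and 0 to 3 (0.0135% to 0.757%). The interaction had 0 in every setting run. The causes were not tested. Other scaling and exon reads stayed within 1.5 times these counts. The replicate block gave 3 in the double mutant against WT and 0 in the other contrasts, and the replicate numbers share only a number. Of 522 values of 32 gene results, 2 reversed: XTH22 in cob-6 against WT was 0.35 without WT replicate 2, in a range of -1.03 to 0.35 when 1 library was left out, and XTH13 in sfr6-3 against WT was 0.28 without WT replicate 1, in a range of -1.15 to 0.28. With 2 libraries per genotype, and WT replicate 1 having at least as many unique reads of each gene as the other 7 together, small changes cannot be told from none.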
